A study of Mus musculus with 3 samples.

Results

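The histone genes of the replication clusters were examined as the probes whose gene name begins with Hist1h, Hist2h, Hist3h or Hist4h on a whole mouse genome array. Of 41174 probes, 42 carried such a name in the scanner files of all 3 arrays, and they stood for 34 of 27745 gene names. By class, 7 probes belonged to the linker histone H1, 15 to H2A, 9 to H2B, 3 to H3 and 8 to H4. By the cluster in the gene name, 28 probes lay in Hist1, 7 in Hist2, 5 in Hist3 and 2 in Hist4. Another 7 probes carried a histone name in only 1 of the 2 versions of the array's design file and were kept out of the counts. Every member was printed as 1 spot. No member's spot was marked as uneven, as an outlier or as saturated on any array. The local background around a spot was marked for 2 members in p53-null MEF, 4 in ES cells and 3 in MEF, among Hist1h2aa, Hist1h2ba, Hist2h3c1, Hist1h4f and 1 probe each of Hist1h2af and Hist1h4d, and these spots were kept.

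The arrays held total RNA of p53-null mouse embryonic fibroblasts (MEF), of embryonic stem (ES) cells, and of MEF described in the series design as p53 wild type, with 1 array for each. All 3 cell samples carried a Nanog-GFP reporter, a fluorescent marker of pluripotent cells, per the labels. The labels do not give the kind of p53 allele, the passage, the number of embryos or the presence of feeder cells. With 1 array per group no test between conditions could be made, so every difference below describes these 3 arrays.

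Histones are the proteins around which DNA is wound. The core of a nucleosome holds H2A, H2B, H3 and H4, and H1 binds the DNA between nucleosomes. The genes of the replication clusters lie close together, have no introns, are near copies of each other within a class and are transcribed mainly in S phase, when newly made DNA needs histones. Their messenger RNAs mostly end in a short stem-loop instead of a poly(A) tail, and the stem-loop is bound by the protein SLBP, which the histone messengers need for processing and translation. Polyadenylated transcripts of some of these genes are known in cells that have left the cell cycle. The Quick Amp labelling used here primes from poly(A) tails, which favours tailed transcripts. How much of each histone messenger was tailed was not tested.

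Several probes could not be assigned to 1 gene, because they share long runs of letters. With a shared run of at least 20 bases as the limit, 13 of the 42 probes fell into 5 families and 29 stood alone. The probes are shown first because their letters decide which values can be read as separate measurements. Each is written 5′ to 3′ as in the design file, and capitals mark the run common to its set. One H2A set shared 26 bases.
Hist1h2ai: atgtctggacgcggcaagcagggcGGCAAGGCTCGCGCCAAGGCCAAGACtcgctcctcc
Hist1h2ak: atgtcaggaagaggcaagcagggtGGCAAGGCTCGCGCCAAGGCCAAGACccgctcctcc
Hist1h2af: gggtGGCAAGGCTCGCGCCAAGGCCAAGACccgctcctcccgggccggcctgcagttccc
The other H2A set shared 44 bases and joined the testis-enriched gene Hist1h2aa to a second Hist1h2af probe.
Hist1h2aa: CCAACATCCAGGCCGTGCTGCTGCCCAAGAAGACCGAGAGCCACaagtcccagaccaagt
Hist1h2af: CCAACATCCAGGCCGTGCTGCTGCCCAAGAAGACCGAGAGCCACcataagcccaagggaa
The H2B set shared 26 bases, and its Hist1h2bk and Hist1h2bm probes had 52 bases in common.
Hist1h2bk: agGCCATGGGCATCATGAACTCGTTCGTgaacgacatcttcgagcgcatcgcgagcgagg
Hist1h2bm: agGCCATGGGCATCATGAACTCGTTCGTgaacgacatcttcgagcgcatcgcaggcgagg
Hist3h2bb: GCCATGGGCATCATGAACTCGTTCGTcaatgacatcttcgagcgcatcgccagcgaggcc
The H4 set shared 29 bases, and its Hist1h4d and Hist1h4f probes had 50 in common.
Hist1h4d: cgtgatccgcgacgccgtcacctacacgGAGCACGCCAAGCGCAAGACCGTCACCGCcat
Hist1h4f: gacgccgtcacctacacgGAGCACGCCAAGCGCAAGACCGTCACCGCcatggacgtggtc
Hist2h4: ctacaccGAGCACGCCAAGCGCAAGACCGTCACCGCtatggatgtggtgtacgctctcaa
The last family, the Hist1h4a probe and a second Hist1h4d probe, had 21 bases in common. Probes of a family are not separate measurements, and which gene's RNA each one caught is uncertain. In mouse build mm8 the Hist1h2ai probe lies at chr13:21794624-21794683, the Hist1h2bk probe above at chr13:22043524-22043583, the Hist3h2bb probe at chr11:58770390-58770449 and the Hist2h4 probe at chr3:96348435-96348494. Exon and untranslated positions were not determined.

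Some probes reached the stem-loop itself, and they are shown because it is the hallmark of these messengers. A perfect inverted repeat of 6 bases around a loop of 4 was found in 1 member, the Hist1h3a probe. Parts of that 16-base element were found in the probes of Hist1h2ae, with 12 of its bases, and Hist1h2ab, with 11. Stretches of 30 bases are printed with these bases in capitals.
Hist1h3a: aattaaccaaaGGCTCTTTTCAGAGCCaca
Hist1h2ae: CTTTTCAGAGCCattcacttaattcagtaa
Hist1h2ab: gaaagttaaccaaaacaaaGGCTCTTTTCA
The Hist1h1a probe held 9 of the bases. The Hist1h2ae probe begins with its 12 bases, so the rest of that probe lies 3′ of the element. In the Hist1h3a and Hist1h2ab probes the bases start at positions 42 and 50, so most of each probe lies before them. Which transcripts the Hist1h2ae probe caught was not tested.

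Signals are given in the scanner's intensity units. Differences are on the log2 scale after each array was divided by the 75th percentile of its spots (p53-null MEF 1040 units, ES cells 834, MEF 829). A probe was well above background where the scanner file says so. The lowest such signals were 16.0 units (p53-null MEF), 11.3 (ES cells) and 12.4 (MEF). Where 1 array of a comparison was not well above background, the fold is a bound written as "at least", and such probes count as measured. The scanner's error model put about 0.20 on the log2 scale on a difference between bright signals, and errors given after ± come from it. They do not cover the spread between cultures.

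Of the 42 histone probes, 38 were well above background in p53-null MEF, 37 in ES cells and 39 in MEF, and 36 on all 3 arrays. The 2 seen on none were the Hist1h2ac probe, with 7.59, 2.34 and 8.47 units in p53-null MEF, ES cells and then MEF, and 1 of the Hist4h4 probes, with 3.22, 2.29 and 2.49. Median signals of the members were 4614 units in p53-null MEF, 1256 in ES cells and 1433 in MEF. The members spanned nearly the whole range of the array, from a few units to 213561 for Hist1h2aa in p53-null MEF. After scaling, ES cells gave the highest value for 18 of the 40 probes seen, MEF for 12 and p53-null MEF for 10. MEF gave the lowest value for 26 and ES cells for 14, and p53-null MEF gave it for 0.

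**Figure D1:**
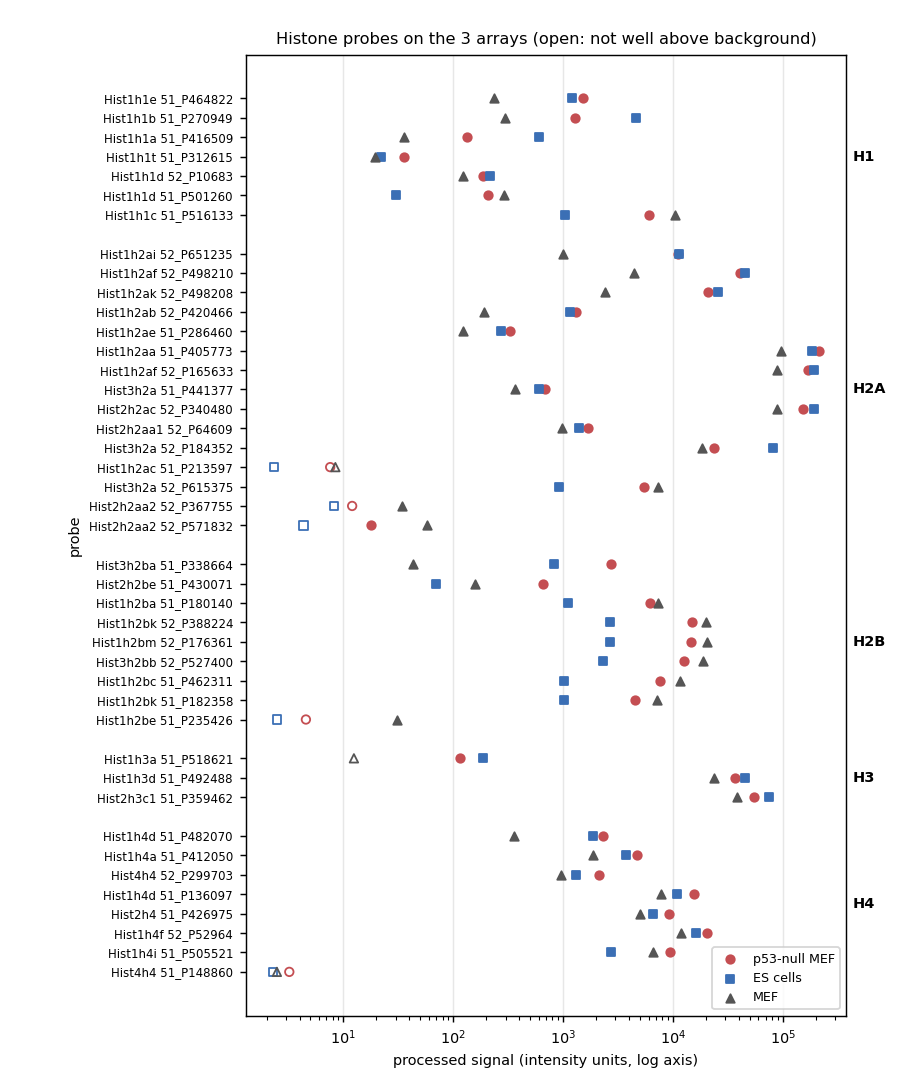
Processed signal (intensity units, log axis) of the 42 histone probes, grouped by class, with 1 point per array. Open points were not well above background, and most H2B probes have their lowest point in ES cells while most H2A and H4 probes have it in MEF.

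Between the fibroblast arrays, which the series design pairs to ask about p53, histone probes differed in both directions. Of 40 measured, 13 were higher by 2-fold or more in p53-null MEF, 4 lower by 2-fold or more and 23 neither. Over all 26525 measured probes of the array, 19% were higher by 2-fold or more and 16.6% lower by 2-fold or more. The members' median log2 difference was 0.50, beside 0.04 over all measured probes. By class the medians were 0.52 for H1, 0.58 for H2A, -0.81 for H2B, 0.31 for H3 and 0.65 for H4. Scaling on spike-in controls moved the median of all probes to 2.11 and that of H2B to 1.20, so the direction of H2B between these arrays depends on the scaling. With it 36 of 38 measured members were higher by 2-fold or more and 0 lower by 2-fold or more, while the medians of the other classes stayed above 0 under every scaling tried.

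The comparison of ES cells with MEF sets pluripotent cells beside fibroblasts. There 14 members were higher by 2-fold or more, 14 lower by 2-fold or more and 12 neither. Over all 28377 measured probes, 33.8% were higher by 2-fold or more and 26.4% lower by 2-fold or more, with a median of 0.25. The members' median was 0.60. The classes differed: medians were 0.82 for H1, 1.11 for H2A, -2.80 for H2B, 0.96 for H3 and 0.45 for H4. H2B stayed below 0 under every scaling tried, between -3.03 and -2.57. The comparisons share the MEF array, so a probe with an odd signal there enters both, and their values are given side by side.

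**Figure D2:**
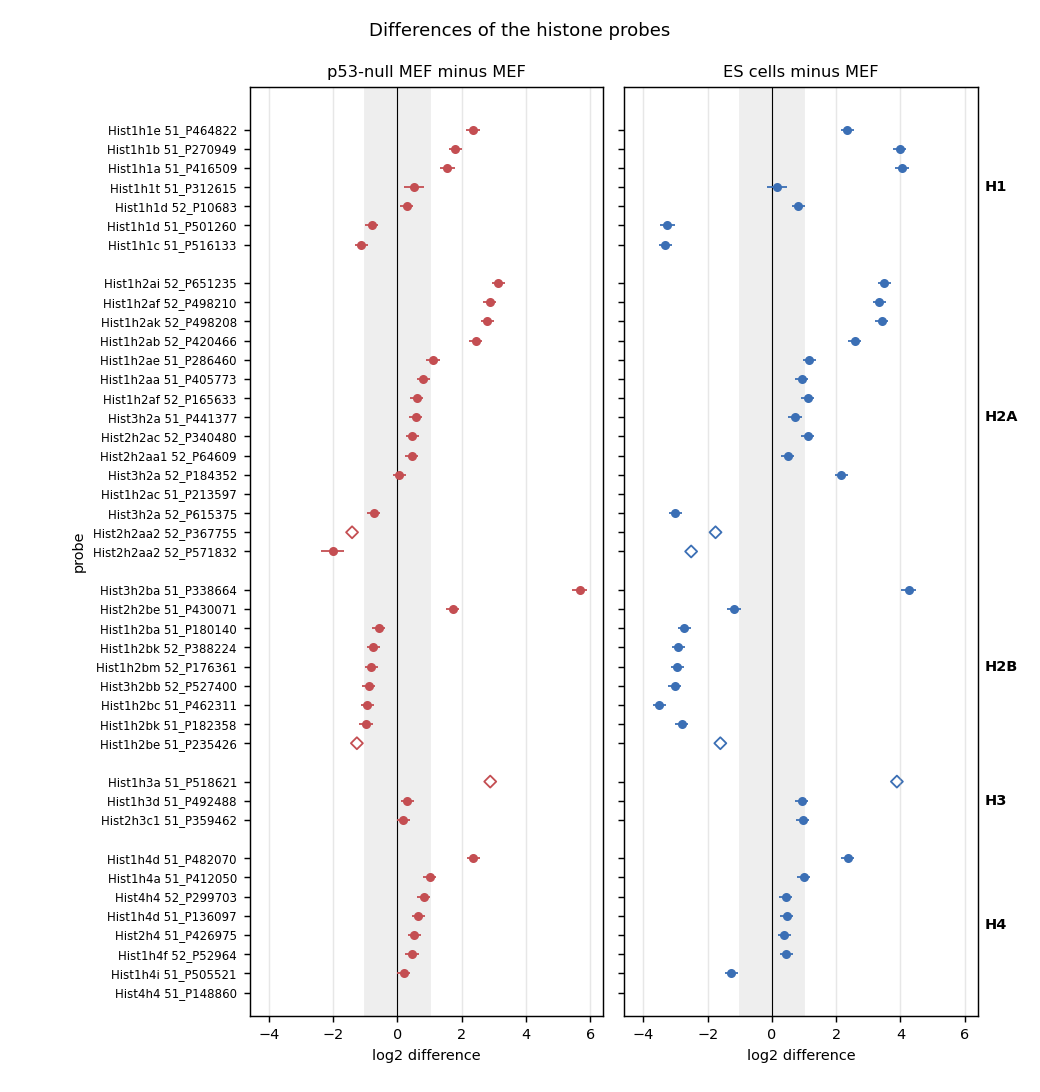
Log2 differences of the histone probes against MEF (left, p53-null MEF; right, ES cells), grouped by class, with the error model's error as bars; open diamonds are bounds and the grey band is 2-fold. In ES cells 8 of 9 H2B probes lie left of the band, and Hist3h2ba lies right of it on both sides.

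The linker histones split by gene. Hist1h1a, the H1 subtype of dividing and early embryonic cells, had 133 units in p53-null MEF, 598 in ES cells and 36.1 in MEF. It was 2.94-fold higher in p53-null MEF and 16.5-fold higher in ES cells, or 0.74 and 2.66 on the log2 scale with normexp background correction, an alternative that models the local background. Hist1h1b had 1289, 4654 and 295 units in the same order, with differences of 1.80 ± 0.20 and 3.97 ± 0.20. Both subtypes thus followed the order ES cells, p53-null MEF, MEF.

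Hist1h1e had 1522 units in p53-null MEF, 1207 in ES cells and 237 in MEF, and was 5.11-fold higher in p53-null MEF and by 2.34 on the log2 scale in ES cells. Hist1h1c, a subtype also made outside S phase, went the other way. It had 6009 units in p53-null MEF, 1049 in ES cells and 10443 in MEF, with differences of -1.12 ± 0.20 and -3.32 ± 0.20. With spike-in scaling its difference in p53-null MEF was 0.86, so that direction depends on the scaling. The probe lies at chr13:23747614-23747673. Hist1h1t, the testis-specific subtype, was dim throughout, with 35.4, 21.8 and 19.6 units in p53-null MEF, ES cells and MEF. Its differences were 0.52 ± 0.31 and 0.14 ± 0.32.

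The H2A probes were mostly higher than in MEF on both other arrays. In p53-null MEF 5 of 14 measured were higher by 2-fold or more and 2 lower, beside 19% and 16.6% of all probes. In ES cells 8 were higher and 3 lower, beside 33.8% and 26.4%. Among the 9 H2A probes measured with no shared run of 20 bases, 2 were higher and 2 lower in p53-null MEF. In ES cells 4 of these were higher and 3 lower. Core histone H2A pairs with H2B in the nucleosome. The family of Hist1h2ai, Hist1h2ak and Hist1h2af shown above had the largest increases. Hist1h2ai gave 11048 units in p53-null MEF, 11323 in ES cells and 1002 in MEF, 8.78-fold and 11.2-fold above MEF. Hist1h2af gave 40564, 45000 and 4403 units, 7.34-fold and 10.2-fold above MEF. Hist1h2ak gave 20788, 25675 and 2388 units, with 2.79 and 3.42. The 3 probes thus lay within 2.79 to 3.13 in p53-null MEF and 3.34 to 3.49 in ES cells.

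The other H2A family was among the brightest of the array and differed less. Hist1h2aa had 213561 units in p53-null MEF, 185710 in ES cells and 97232 in MEF, with differences of 0.81 and 0.92. Hist1h2af at its second probe had 168652, 191988 and 88634 units, with 0.60 and 1.11. With 44 shared bases, the Hist1h2aa signal cannot be read as that of the testis-enriched gene alone. The probe named for Hist2h2ac, also bright, lies on the strand opposite to that RefSeq gene and on the same strand as the nearby Hist2h2aa1 probe, so its gene is uncertain. It had 152227 units in p53-null MEF, 191431 in ES cells and 87751 in MEF, with 0.47 and 1.12. Of 3 probes outside the members that share at least 20 bases with them, the one for H2afj, a variant H2A gene, shared 29 and had 184464, 182256 and 130126 units.

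The H2A probes with stem-loop bases were higher than MEF on both arrays. Hist1h2ab had 1302 units in p53-null MEF, 1152 in ES cells and 192 in MEF, with differences of 2.44 and 2.58. Hist1h2ae had 329, 275 and 122 units, with 1.10 and 1.16. In contrast, both probes named for Hist2h2aa2 were lower. They lie on the strand opposite to that RefSeq gene, so their gene is uncertain. One had 17.8 units in p53-null MEF and 57.4 in MEF, a difference of -2.02 ± 0.35. It was not well above background in ES cells, at least 5.72-fold below MEF. The other was well above background in MEF alone, at 33.9 units, so p53-null MEF lay at least 2.66-fold and ES cells at least 3.38-fold below it. With normexp the Hist2h2aa2 values lay between -0.93 and -0.52, within 2-fold. Hist2h2aa1 had 1680, 1390 and 984 units, with 0.44 and 0.49.

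H2B was the class with most of its probes lower. In ES cells 8 of 9 lay 2-fold or more below MEF and 1 was higher, beside 26.4% and 33.8% of all probes. In p53-null MEF 7 of 9 were below 0, but only 1 reached 2-fold, as a bound, and 2 were higher by 2-fold or more. Of all probes, 16.6% were lower and 19% higher there. Among the 6 H2B probes with no shared run of 20 bases, 5 were lower and 1 higher in ES cells, with a median of -2.17. In p53-null MEF 1 of these was lower and 2 were higher. Hist1h2bc had 7577 units in p53-null MEF, 1023 in ES cells and 11607 in MEF, which is 11.4-fold lower in ES cells (-3.51 ± 0.20) and -0.94 ± 0.20 in p53-null MEF. Hist1h2bm of the printed H2B set had 14752, 2685 and 20640 units, with -0.81 and -2.95. Hist1h2bk of the same set had 14985, 2688 and 20110 units, nearly the same as Hist1h2bm. The 3 probes of that set lay between -0.89 and -0.75 in p53-null MEF and between -3.02 and -2.91 in ES cells, each range being narrower than the technical error of 0.20.

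Probes outside that set gave similar values without its shared letters. Hist1h2ba, the testis-enriched H2B gene, shared at most 14 bases with another member. It had 6122 units in p53-null MEF, 1107 in ES cells and 7285 in MEF, with -0.58 and -2.73. The other Hist1h2bk probe, which starts 66 bases before the printed one, had 4536, 1025 and 7112 units, with -0.98 and -2.80. Hist1h2be was well above background in MEF alone, at 30.6 units. Against that, p53-null MEF lay at least 2.40-fold and ES cells at least 3.05-fold lower, or -0.63 and -0.47 with normexp.

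The testis-enriched genes were read beside markers of male germ cells. Of 6 such markers, 3 were well above background in p53-null MEF, 5 in ES cells and 3 in MEF. Ddx4, for a germ cell RNA helicase, had 451 units in p53-null MEF, 2320 in ES cells and 758 in MEF. Sycp3, for a protein of meiotic chromosomes, had 336 units in ES cells and was not well above background in the fibroblasts. Prm1 and Tnp1 were well above background on all 3 arrays, Tnp2 in ES cells alone, and the protamine gene Prm2 on none. The part of germ line transcripts in the signals of Hist1h2aa, Hist1h2ba and Hist1h1t was not tested. Whether the Hist1h2ba probe caught other H2B messengers was not tested.

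Hist3h2ba and Hist2h2be departed from the other H2B genes. Hist3h2ba, named H2bu2 in RefSeq, had 2756 units in p53-null MEF, 827 in ES cells and 43.0 in MEF. It was 51.0-fold higher in p53-null MEF (5.67 ± 0.23) and 19.1-fold higher in ES cells (4.26 ± 0.23), the highest value of all members in each comparison as scaled here. With normexp correction it was 4.43 and 3.04. In ES cells Hist3h2ba then lay below Hist1h1b at 3.63 and the family of Hist1h2ai, Hist1h2ak and Hist1h2af at 3.41, 3.34 and 3.33. Its probe, at chr11:58765641-58765700, shared at most 7 bases with another member. Hist2h2be had 654 units in p53-null MEF, 69.8 in ES cells and 157 in MEF, so it was 3.31-fold higher in p53-null MEF and 2.27-fold lower in ES cells, or -0.81 there with normexp and -0.94 with spike-in scaling. Hist3h2ba and Hist3h2bb, named H2bu1-ps in RefSeq, lie in the same small cluster on chromosome 11. The Hist3h2bb probe, of the printed H2B set, had 12618, 2299 and 18597 units. It was lower than MEF on both arrays, by -0.89 and -3.02.

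The H3 probes were few and all above 0 in both comparisons. Hist1h3a, whose probe holds the whole stem-loop, had 116 units in p53-null MEF and 186 in ES cells, and its 12.5 units in MEF were not well above background. Against MEF, p53-null MEF lay at least 7.41-fold and ES cells at least 14.8-fold higher. The MEF signal lay just above the floor used for the bound, so these bounds equal the measured differences and are not strict minimums. With normexp they were 1.08 and 1.73 on the log2 scale. Hist1h3d had 36680 units in p53-null MEF, 45045 in ES cells and 23591 in MEF, with 0.31 and 0.92. Hist2h3c1 had 55013, 75221 and 38480 units, with 0.19 and 0.96.

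The H4 probes were all above 0 in p53-null MEF, 2 of 7 by at least 2-fold, beside 19% of all probes. Those 2, for Hist1h4a and the second Hist1h4d probe, form the last family described above. Of the 2 H4 probes measured with no shared run of 20 bases, 0 reached 2-fold there. In ES cells 6 of 7 were above 0. Histone H4, the least variable of the core histones, is encoded by genes that make the same or nearly the same protein. The Hist1h4d, Hist1h4f and Hist2h4 probes printed above lay between 0.46 and 0.65 in p53-null MEF and between 0.39 and 0.46 in ES cells. Hist1h4f, the brightest of them, had 20426 units in p53-null MEF, 16256 in ES cells and 11863 in MEF. Hist1h4d there had 15400, 10794 and 7795 units, and Hist2h4 9120, 6617 and 5033. All 3 thus had MEF lowest. Hist1h4a had 4692, 3734 and 1864 units, 2.01-fold higher in p53-null MEF and 0.99 on the log2 scale in ES cells, at the edge of 2-fold. Hist1h4i was the exception in ES cells, at a probe of which the design file places only 7 bases in the genome, at chr13:22048045-22048051, so its place in the gene is not established. It had 9420 units in p53-null MEF, 2729 in ES cells and 6558 in MEF, with 0.19 in p53-null MEF and 2.42-fold lower in ES cells. Hist4h4, the gene of the smallest cluster, had 2139, 1305 and 967 units at its measured probe, with 0.82 and 0.42.

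Where a gene had several probes, they often gave different answers. Of 6 genes with at least 2 measured probes, 4 had probes over 2-fold apart, namely Hist1h1d, Hist1h2af, Hist1h4d and Hist3h2a, and Hist1h2bk and Hist2h2aa2 did not. Hist1h1d had a probe with 186 units in p53-null MEF, 216 in ES cells and 122 in MEF, with 0.28 and 0.82. A second probe, starting 1751 bases further along the same strand, had 209, 30.3 and 290 units, with -0.80 and -3.26 (-2.04 with normexp). The signal under this gene name was thus higher or lower in ES cells according to the probe. Whether both probes read the same transcript was not tested.

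Hist3h2a showed the same kind of split over 3 probes. The probe at chr11:58771080-58771139 had 23895 units in p53-null MEF, 82234 in ES cells and 18343 in MEF, with 0.05 in p53-null MEF and 4.46-fold higher in ES cells. The probe at chr11:58771647-58771706 had 5510, 921 and 7346 units, with -0.74 in p53-null MEF and 8.02-fold lower in ES cells. The remaining probe reads the opposite strand and had 686, 610 and 369 units, with 0.57 and 0.72. Hist1h4d differed by 2.36 in both comparisons at 1 probe, with 2329, 1868 and 361 units, and by 0.65 and 0.46 at the other.

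**Figure D3:**
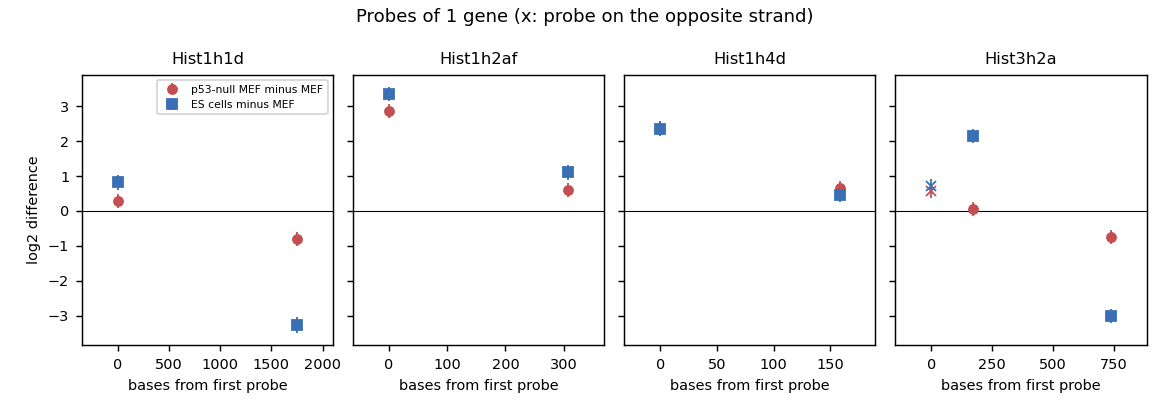
Log2 differences against MEF of the probes of 4 genes, by distance in bases from the first probe of the gene in build mm8; red circles are p53-null MEF, blue squares ES cells, crosses the Hist3h2a probe on the opposite strand, and bars the error model's error. In Hist1h1d and Hist3h2a the ES cell difference changes sign between probes, from 0.82 to -3.26 and from 2.16 to -3.00.

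Most measured probes at the low end of base composition were lower than MEF. The GC limit was set after the values were seen, and probes with stem-loop bases were set apart. The shared direction of the rest therefore only describes these values. Of the 42 members, 11 had a GC content of at most 40%, and 9 of those were measured. The 2 that hold stem-loop bases, for Hist1h2ab and Hist1h2ae, were higher than MEF in both comparisons. The other 7 were lower in both, between -2.02 and -0.74 in p53-null MEF and between -3.51 and -1.61 in ES cells. With spike-in scaling 4 of them were above 0 in p53-null MEF, 1 was below 0 and 2 were not measured, while all 7 stayed below 0 in ES cells. They were the probes of Hist1h1c, Hist1h2bc, Hist1h2be, both of Hist2h2aa2, and the later ones of Hist1h1d and Hist3h2a. Among the 31 members above 40% GC, 26 were above 0 in p53-null MEF and 24 in ES cells. All probes of the shared-run families are among these 31, so the counts repeat near copies.

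Over all measured probes of the array the low-GC ones leaned the other way. Their median was 0.32 in p53-null MEF against -0.17 for the rest, and 0.42 in ES cells against 0.11. Of them 38.7% lay below 0 in p53-null MEF and 40.3% in ES cells. Of the measured probes above 40% GC, 56.7% lay below 0 in p53-null MEF and 47.2% in ES cells. Apart from the stem-loop bases, the position of these probes in their transcripts was not determined.

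Neighbouring H2A and H2B genes, which often share 1 promoter region, were compared where probes lay on opposite strands with at most 1500 bases between them. Hist1h2aa and Hist1h2ba, with 788 bases between their probes, differed by 0.92 and -2.73 in ES cells. Hist3h2bb, at -3.02, lay 630 bases from the Hist3h2a probe at 2.16 and 1197 from the one at -3.00. The Hist1h2aa signal is open to its near copies, as above. The Hist3h2bb probe shares 26 bases with the printed Hist1h2bk and Hist1h2bm probes, so which gene's RNA it caught is also uncertain.

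Promoters of the members were read from RefSeq, assembly GRCm38.p6, as the 250 bases before the annotated start. All 34 genes matched RefSeq, and 29 had 30 windows there. For 3 of these genes, Hist1h2ai, Hist2h2aa2 and Hist2h2ac, the design file puts every probe on the opposite strand from the RefSeq gene, so probe and promoter may belong to different copies. The letters were searched on both strands for 5 motifs known from histone promoters, and no matches of different motifs overlapped. CCAAT, the CCAAT box, was in 26 of the 30 windows and in 33.8% of all 32851 windows. TATAAA, the letters of the TATA box, was in 16 and in 12.4% of all, counted at any distance from the start and on either strand. The octamer core TTTGCAT, which Oct proteins bind, was in 10, with 6 of 11 H2A, 4 of 6 H2B and 0 of the others, and in 4.12% of all. The H1 box AAACACA was in 9, of them 5 of 6 H1 windows, and in 6.25% of all. The E2F letters TTGGCGC or TTCCCGC were in 3 windows, all of H4, and in 5.62% of all. The windows of Hist1h2aa (chr13:23934187-23934436) and Hist1h2ba (chr13:23934157-23934406) overlap, so matches counted in both can be the same letters. A match is a description of letters and says nothing of binding.

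Promoters of a gene from each of the patterns above are printed 5′ to 3′ on the gene's strand, with motif matches in capitals. Hist1h1b stands for the H1 genes that were higher, at chr13:21780626-21780875 on the minus strand, and has the H1 box, CCAAT boxes and a TATA box.
Hist1h1b: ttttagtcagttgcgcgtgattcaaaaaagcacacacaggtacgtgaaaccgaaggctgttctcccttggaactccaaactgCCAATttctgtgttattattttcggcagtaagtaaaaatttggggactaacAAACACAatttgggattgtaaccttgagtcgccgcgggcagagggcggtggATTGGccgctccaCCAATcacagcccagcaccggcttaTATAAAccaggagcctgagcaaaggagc
Hist1h2ak stands for the H2A family that was higher, at chr13:21753913-21754162 on the minus strand, with 3 CCAAT boxes.
Hist1h2ak: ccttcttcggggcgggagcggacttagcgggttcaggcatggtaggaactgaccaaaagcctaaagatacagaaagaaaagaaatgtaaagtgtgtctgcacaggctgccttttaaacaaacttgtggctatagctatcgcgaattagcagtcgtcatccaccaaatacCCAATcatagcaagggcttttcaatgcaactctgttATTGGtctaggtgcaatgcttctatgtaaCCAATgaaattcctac
Hist1h2bk stands for the H2B genes that were lower in ES cells, at chr13:22035571-22035820 on the plus strand, with the octamer core, CCAAT boxes and a TATA box.
Hist1h2bk: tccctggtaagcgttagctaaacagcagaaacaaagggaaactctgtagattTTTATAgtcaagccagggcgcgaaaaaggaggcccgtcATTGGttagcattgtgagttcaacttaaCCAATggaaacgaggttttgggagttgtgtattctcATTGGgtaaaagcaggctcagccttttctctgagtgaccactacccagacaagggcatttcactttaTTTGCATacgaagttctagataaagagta
Hist3h2ba stands for the H2B gene that was higher, at chr11:58948661-58948910 on the plus strand, with CCAAT and TATA boxes.
Hist3h2ba: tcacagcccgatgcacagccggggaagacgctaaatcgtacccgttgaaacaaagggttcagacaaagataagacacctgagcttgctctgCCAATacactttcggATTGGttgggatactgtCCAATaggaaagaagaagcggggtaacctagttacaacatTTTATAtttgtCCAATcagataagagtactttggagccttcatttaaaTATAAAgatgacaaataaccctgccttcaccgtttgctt

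Of 18 genes that make and process histone messengers, 5 were higher by 2-fold or more in p53-null MEF and 0 lower, with a median of 0.71, beside 19% and 16.6% of all probes. In ES cells 13 were higher and 0 lower, with a median of 1.28, beside 33.8% and 26.4%. Members below 0 lay within 2-fold, as Ncbp2 at -0.54 and Upf1 at -0.49 in p53-null MEF and Lsm10 at -0.71 in ES cells. Slbp, for the stem-loop binding protein, had 10921 units in p53-null MEF, 20945 in ES cells and 3263 in MEF, 2.67-fold and 6.38-fold above MEF. Npat, for the cyclin E target that activates histone transcription, was 1.96-fold and 5.28-fold higher, and Casp8ap2, also known as Flash, was 6.31-fold and 17.6-fold higher. Zfp473, for a zinc finger protein of the histone processing machinery, was 58.1-fold higher in ES cells, with 18.9 units in MEF, and 1.21-fold higher in p53-null MEF. In these lists the brightest probe stood for a gene.

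Of 16 histone chaperones, which carry new histones to DNA, 10 were higher by 2-fold or more in p53-null MEF and 14 in ES cells, with 0 lower in either and medians of 1.36 and 2.52. Nasp, a chaperone for H1 and H3 with H4, was 9.31-fold and 26.0-fold higher, and Chaf1b, a subunit of the chromatin assembly factor, 4.93-fold and 7.44-fold. All 16 S phase genes were higher by 2-fold or more in ES cells, and 15 were in p53-null MEF, with medians of 3.10 and 1.84. Of all probes, 33.8% were higher and 26.4% lower in ES cells, and 19% and 16.6% in p53-null MEF. The histone probes, at 0.60 and 0.50, had lower medians than these lists.

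Histone variants encoded outside the clusters, whose messengers carry poly(A) tails, were mixed. Of 13 measured, 5 were higher by 2-fold or more and 1 lower in p53-null MEF, and 6 higher and 2 lower in ES cells. Over all probes the shares were 19% and 16.6% in p53-null MEF, and 33.8% and 26.4% in ES cells. H2afz, for the variant H2A.Z, was 4.71-fold and 5.43-fold higher, and Cenpa, for the centromeric H3 variant, 4.17-fold and 6.65-fold. H1fx, a linker histone gene, lay below MEF by 4.64-fold in p53-null MEF and 3.46-fold in ES cells. H2afy3 was 2.55-fold higher in p53-null MEF and 1.59-fold lower in ES cells.

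**Figure D4:**
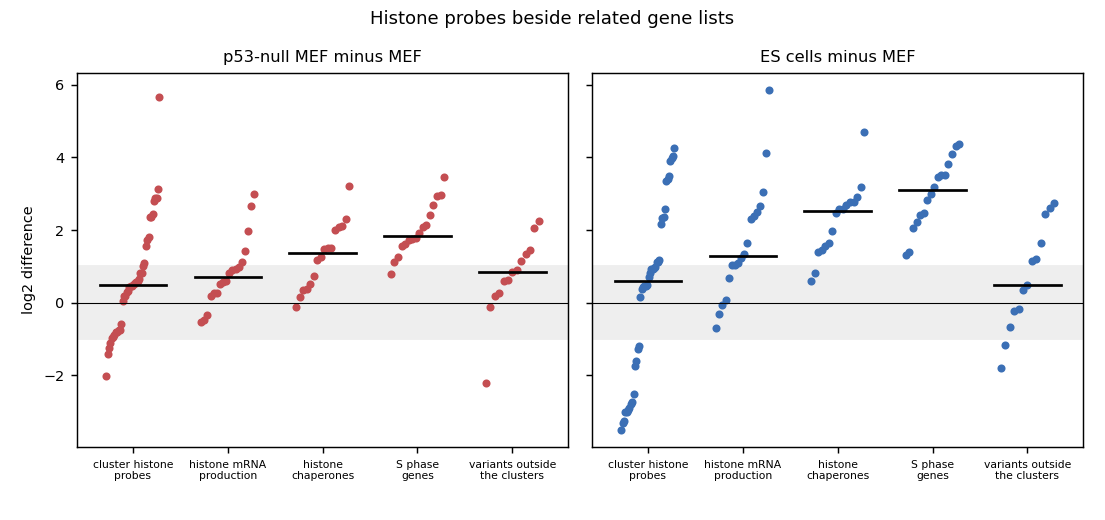
Log2 differences against MEF (left, p53-null MEF; right, ES cells) of the histone probes and of 4 gene lists, 1 point per probe or gene, with the median as a black line and 2-fold as a grey band. The S phase and chaperone lists have medians of 1.84 and 1.36 on the left and 3.10 and 2.52 on the right, and the histone probes spread over both sides of 0.

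The samples were checked against their labels. Trp53, which encodes p53, had 56.3 units in p53-null MEF, 4902 in ES cells and 1304 in MEF, and the signal of its target Cdkn1a was 50.5-fold lower in the p53-null cells, although the deleted part of Trp53 is not given in the labels. All 6 ES cell markers were higher by 2-fold or more in ES cells than in MEF and all 6 fibroblast markers lower by 2-fold or more, with the collagen gene Col1a1 still at 1253 units in ES cells. Of 6 macrophage markers 3 were well above background in p53-null MEF, 3 in ES cells and 4 in MEF, and of 4 endothelial markers 2, 3 and 2. The part of these cells, and of fibroblasts in the ES cell culture, in the histone values was not tested, and fewer cells of a type cannot be told apart from less RNA per cell. The arrays of ES cells and MEF shared a slide and a scan, while that of p53-null MEF was on a slide of its own, with a median local background of 44 units against 27 on the other slide. The female transcript Xist had 7437 units in the p53-null cells against 2.78 in MEF, and the Y-linked gene Eif2s3y had 4.07 and 1236, the 2.78 and 4.07 being not well above background. Slide, scan, embryo sex and p53 status therefore cannot be told apart between the fibroblast arrays.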

How the data were processed

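Cy3-labelled RNA was measured on 1-colour Agilent arrays of 1 probe set. The deposited intensities are linear spot signals from Agilent Feature Extraction 9.5.3.1, already background-subtracted and corrected for spatial trends, per the file headers, but not scaled between arrays. The deposited value table held the same intensities, with ratios to them from 0.995 to 1.005, so it has no log scale or centring, and column medians of 51.8 (p53-null MEF), 50.0 (ES cells) and 43.2 (MEF). The software's marks for background, unevenness, outliers and saturation were taken from the files (per the file headers, other flags of 0 or 1). Signals of 8 members on each array came from its rescaled low-gain scan, though not of the same members on every array. Hist1h2ak, the Hist1h2af probe of its set and the brightest Hist3h2a probe were low-gain in p53-null MEF and ES cells but not in MEF. The printed H2B probes were low-gain in MEF alone. Differences of these probes against MEF thus set a rescaled low-gain signal against one that was not.

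Processed signals were put on the log2 scale, and the 75th percentile of each array's 43379 non-control spots was taken off, without 1639 control spots and without 62, 176 and 192 spots marked as uneven or outliers. All arrays gave values for 41050 of 41174 probes. In a bound the dim signal was replaced by the array's lowest signal well above background, unless it was itself higher. The error model gives 10% per bright signal. Probes printed at several spots had a median coefficient of variation of 3.62%, 3.47% and 4.44%. The number of arrays limits the precision. With 1 array per group no test, p-value or replicate error was possible.

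Members and gene lists were chosen with earlier results of these data known. The text names, in each class and comparison, the 2 measured members with the largest and the 2 with the smallest difference, the brightest member of each class on each array, and further members tied to them, 33 probes in all. Other members are named to account for each one. Probe positions came from the newer design file (mm8) and probe sequences from the older one, which cites mm7. Scaling, differences and counts at 2-fold were tested on simulated data. Python 3.11.15, pandas 2.3.3, numpy 2.4.6, R 4.3.3 and limma 3.58.1 were used. Alternatives were other scalings, normexp correction with an offset of 50, the filter on dim probes, marked spots, the value table and the choice of members.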

Additional observations from a re-analysis of the deposited data

How the results depend on the processing

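No paired analysis was possible because each group has 1 array, and no replicate could be left out. Scaling moved the values most. For p53-null MEF against MEF, no scaling gave a median of 0.82 and 2 members at least 2-fold lower, and spike-in scaling a median of 2.51, 36 higher and 0 lower, with Hist1h1c turned to 0.86. Of the 12 members below 0 as reported, 9 were then above 0, 1 was below and 2 were not measured. The median of all probes was then 0.38 and 2.11, and the share of higher probes among all those at least 2-fold apart was 72.0% and 98.3%, against 53.4% as reported. Normexp correction left 2 members lower, as did a filter to probes well above background on both arrays. For ES cells against MEF, median scaling gave a median of 0.38 and spike-in scaling 0.84. Members with no shared run of 20 bases were an alternative chosen after seeing the data. Of 27 measured, 8 were higher and 4 lower by 2-fold or more in p53-null MEF, beside 19% and 16.6% of all probes. In ES cells 9 were higher and 11 lower, beside 33.8% and 26.4%. The H4 median in ES cells was then -0.43 over 2 probes. All 49 probes with a histone name in any file, also added later, gave medians of 0.46 and 0.47. Of 66 values of named probes, no scaling moved 32 beyond their technical error, median scaling 30, normexp 19, no filter on dim probes 5 and quantile normalization 3, and keeping marked spots or using the value table moved 0. Spike-in scaling moved or reversed all 64 that it left measured. The cause of these shifts was not tested. Signal over background limits the dim members, such as Hist1h2be and Hist2h2aa2, to bounds.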

Other observations

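Probes outside the member list repeated the bright H2A signals. A probe named MGC73635 in the older design file, which shares 28 bases with a Hist1h2af probe, had 194598 units in p53-null MEF, 187277 in ES cells and 40487 in MEF, with log2 differences of 1.94 and 2.20. A second Hist2h2ac probe, named so in 1 design version, shares 51 bases with the member probe and had 146005, 179412 and 83295 units, with 0.48 and 1.10.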
